A study of Homo sapiens with 6 samples.

Results

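Chromatin accessibility was followed at 6 genes of the teneurin and latrophilin families, TENM2, TENM3, TENM4, ADGRL1, ADGRL2 and ADGRL3, out of 20149 protein-coding genes. The set was chosen by measured values of these libraries, because a TENM2 promoter summit was seen in the knockout and not in the parental libraries, and the other genes were added as its relatives and binding partners. Differences between the groups at these genes are therefore given as a description, with no test. MDA-MB-231 cells, a long-used line of triple-negative human breast cancer, were grown in a DMEM-based medium with 10% fetal bovine serum. Parental cells gave 3 libraries, and SAP30-KO1 cells, the same line after CRISPR knockout of SAP30, gave another 3. SAP30 is a subunit of the SIN3 corepressor complex. ATAC-seq, in which a transposase inserts adapters into open DNA, asked how loss of SAP30 changed chromatin accessibility. By the study's methods a knockout line was a mixture of several selected knockout cells, so loss of SAP30 and other features of those founder cells cannot be told apart with 1 such line. In bulk libraries, a site that is more open in each cell and a site that is open in more of the cells cannot be told apart either.

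Teneurins are large single-pass membrane proteins whose extracellular part carries EGF-like repeats and a barrel of tyrosine-aspartate repeats. Latrophilins, encoded by the ADGRL genes, are adhesion G protein-coupled receptors that were found as receptors of the spider toxin α-latrotoxin. The 2 families bind each other between neighbouring cells and are best known for synapse formation and axon guidance. FLRT proteins bind latrophilins and UNC5 netrin receptors, and neurexins and contactin 6 have also been described as latrophilin partners. Apart from ADGRL1, which spans 58.4 kb, the 6 genes followed here are long, with start sites spread over their introns.

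A summit is the 1 position at which a peak was strongest, and its score is the −log10 of the q value of the peak. The lists carry no read counts, so scores were ranked within their own library as a percentile from 0 to 100, and a library with no summit at a site was given 0. Each library had between 29762 and 40650 summits, and the median score of a library ran from 5.58 to 6.56. Summits of all libraries were widened by 250 bp on each side and merged into 56419 union loci, of which 28.9% held a summit in all 6 libraries. From 50 kb upstream of each gene to its end, the 6 genes held 89 loci. TENM2 had 34 of these, TENM3 20, ADGRL2 16, ADGRL3 11, TENM4 7 and ADGRL1 1. Introns held 76 of the 89 loci, sites within 1 kb of an annotated start site 8, upstream sequence 4 and an exon 1. A summit in all 6 libraries was found at 14 of the 89, or 15.7%, and a summit in a single library at 29, or 32.6%, against 28.5% of all union loci. At the 1 kb limit, the ADGRL1 promoter summit lay 722 bp from its start site, and the ADGRL2 locus nearest outside lay at 1162 bp with a percentile of 1.31 in 1 parental library.

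The sequences at the loci that carry the TENM2 difference are shown with 3 sites for comparison. They are the strongest TENM2 locus that was open in both groups and the main promoter loci of TENM3 and ADGRL2. All are from GRCh37 (hg19), plus strand, 5′ to 3′. Capitals mark matches, on either strand, to the motifs named after the sequences. The TENM2 promoter locus, chr5:167379386-167380178, is printed on both sides of the exon it contains, as chr5:167379386-167379592 and chr5:167379828-167380127. The next locus upstream is chr5:167372721-167373020, the locus open in both groups is chr5:167126629-167126928, the TENM3 promoter is chr4:183370161-183370460 and the ADGRL2 promoter is chr1:82266821-82267120.
TENM2 promoter locus, before the exon: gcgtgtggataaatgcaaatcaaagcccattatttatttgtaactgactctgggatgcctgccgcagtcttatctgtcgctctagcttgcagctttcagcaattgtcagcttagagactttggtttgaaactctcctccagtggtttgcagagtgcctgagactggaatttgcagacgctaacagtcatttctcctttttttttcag
TENM2 promoter locus, after the exon: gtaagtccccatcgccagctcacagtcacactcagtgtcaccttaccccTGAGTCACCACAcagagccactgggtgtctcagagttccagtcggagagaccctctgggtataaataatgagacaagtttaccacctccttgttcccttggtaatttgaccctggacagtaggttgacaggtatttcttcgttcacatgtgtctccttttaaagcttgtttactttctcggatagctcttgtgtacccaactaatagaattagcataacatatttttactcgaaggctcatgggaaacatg
TENM2 locus next upstream: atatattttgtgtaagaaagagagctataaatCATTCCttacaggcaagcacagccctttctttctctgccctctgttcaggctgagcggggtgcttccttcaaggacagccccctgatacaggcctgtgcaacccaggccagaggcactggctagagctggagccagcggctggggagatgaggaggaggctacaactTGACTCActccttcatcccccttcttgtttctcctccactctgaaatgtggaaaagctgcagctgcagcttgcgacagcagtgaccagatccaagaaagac
TENM2 locus open in all libraries: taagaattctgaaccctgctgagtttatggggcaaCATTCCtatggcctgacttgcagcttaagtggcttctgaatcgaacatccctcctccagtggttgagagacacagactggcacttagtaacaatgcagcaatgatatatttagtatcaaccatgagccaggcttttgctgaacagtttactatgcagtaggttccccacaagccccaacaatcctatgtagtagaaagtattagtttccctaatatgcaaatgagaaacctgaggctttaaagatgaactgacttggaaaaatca
TENM3 promoter locus: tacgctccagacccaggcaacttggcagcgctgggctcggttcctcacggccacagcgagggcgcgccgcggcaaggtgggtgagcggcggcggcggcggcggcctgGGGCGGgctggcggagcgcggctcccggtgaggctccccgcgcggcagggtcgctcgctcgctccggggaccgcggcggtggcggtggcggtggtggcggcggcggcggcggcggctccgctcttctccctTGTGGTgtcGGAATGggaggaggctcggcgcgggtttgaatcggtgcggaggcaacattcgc
ADGRL2 promoter locus: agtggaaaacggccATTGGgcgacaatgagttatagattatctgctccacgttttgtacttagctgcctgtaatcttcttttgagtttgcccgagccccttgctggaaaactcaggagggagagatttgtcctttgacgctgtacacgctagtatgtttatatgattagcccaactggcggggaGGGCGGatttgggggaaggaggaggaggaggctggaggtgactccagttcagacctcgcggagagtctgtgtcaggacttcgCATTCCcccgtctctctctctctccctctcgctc

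The motifs searched were AP-1 (TGANTCA), TEAD (GGAATG), SP/KLF (GGGCGG), NF-Y (CCAAT), RUNX (TGTGGT), CRE (TGACGTCA) and the NRF1 core (GCGCANGC). The stretch before the TENM2 exon held none of them. The stretch after it held TGAGTCA, a match to AP-1, and ACCACA, the reverse complement of the RUNX letters, which share 1 base. The exon between them is not printed, and the 300-base window around the strongest summit of the promoter locus takes in part of it. This window held 2 NF-Y and 3 RUNX matches, no AP-1 match and 12 CpG, more CpG than in 75.4% of all loci. The next locus upstream held an AP-1 match, TGACTCA, and a TEAD match in reverse complement. The TENM2 locus that was open in all libraries held a TEAD match and 1 CpG. The TENM3 promoter window was 76.3% G and C with 46 CpG, and the ADGRL2 window held 13 CpG. Among 300-base windows around the strongest summit of 56401 union loci, 29.5% held AP-1, 20.9% TEAD, 22.0% SP/KLF, 32.4% NF-Y, 22.2% RUNX, 0.693% CRE and 4.84% the NRF1 core. The same windows at the 89 teneurin and latrophilin loci held AP-1 in 23, TEAD in 21, SP/KLF in 6, NF-Y in 35 and RUNX in 17, and CRE and the NRF1 core in none. They were poor in CpG, as 10 of the 89 (11.2%) held 10 or more against 27.3% of all loci. These matches are letters in a window and do not show binding.

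TENM2 spans 1285 kb of chromosome 5 (chr5:166406034-167691162, plus strand, ENSG00000145934.17) and encodes the teneurin for which latrophilin binding is best known. At its promoter locus the 3 parental libraries had no summit. In SAP30-KO1 there were summits with scores of 12.5, 17.6 and 19.9, at percentiles of 89.7, 93.8 and 97.2. The groups did not overlap, and every knockout value lay among the strongest peaks of its library. The summits lay 267, 548 and 256 bp after the start of TENM2-208, an annotated retained-intron transcript, and not at the start of the canonical transcript TENM2-203, which lies at the beginning of the gene. The summits of SAP30-KO1 replicates 1 and 3 fell inside exon 6 of TENM2-203 (chr5:167379593-167379827, 235 bp), and that of replicate 2 in the intron that follows. An antisense RNA gene, ENSG00000253660 (chr5:167364722-167380474, minus strand), starts 546 to 838 bp from the 3 summits, and ATAC-seq does not tell the strands apart.

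Over all TENM2 start sites, the highest promoter percentile was 0.549 in parental replicate 1 and 0 in the other parental libraries, which gave a mean of 0.183 ± 0.317 (SD, n = 3). The SAP30-KO1 mean was 93.6 ± 3.77 (SD, n = 3). The difference of 93.4 was the largest of the 12568 protein-coding promoters with a summit in any library. This is the value that singled the gene out. Across those promoters, 0.652% had a summit in all knockout and no parental library. The call rests on the start site that is counted. With start sites of protein-coding transcripts alone, the knockout percentiles were 11.1, 29.2 and 65.2, and the difference was 35.0. These came from 2 sites, near position 167361750 in replicate 1 and near position 167181999 in replicates 2 and 3, so no coding start site had a summit in all 3 knockout libraries. At the start of the canonical transcript no library had a summit.

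**Figure D1:**
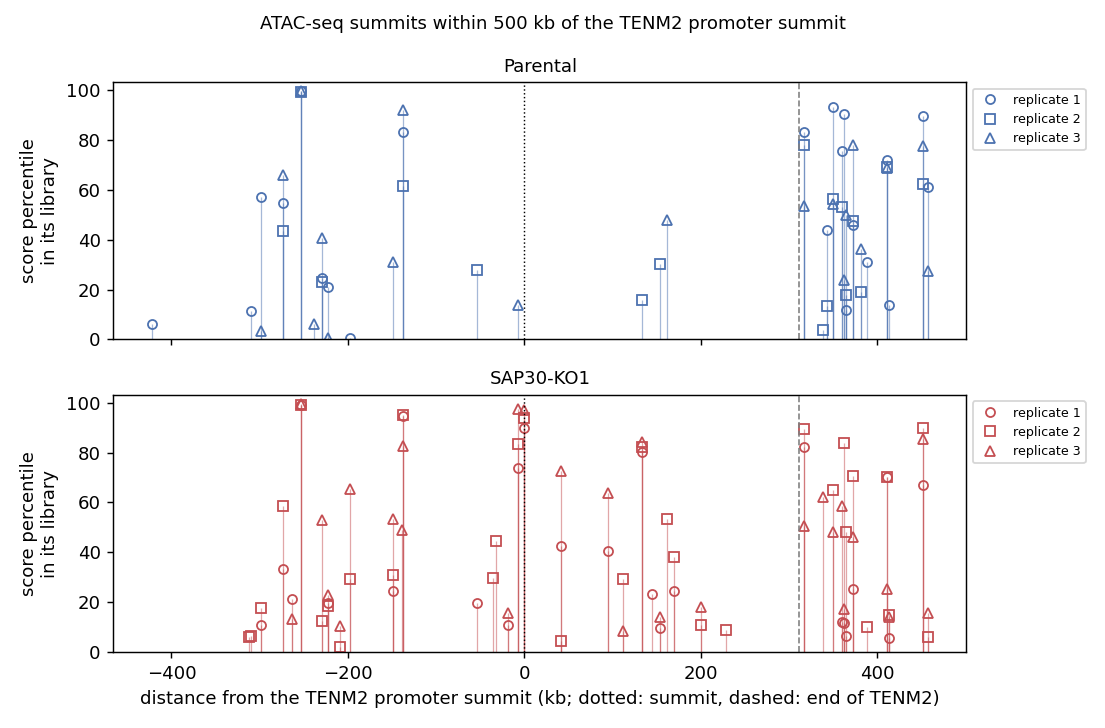
Score percentile of each summit within its own library (vertical axis, 0 to 100) against distance in kb from the TENM2 promoter summit, in the 3 Parental libraries (above) and the 3 SAP30-KO1 libraries (below), with 1 symbol per replicate. Between the summit and the end of TENM2 the parental libraries show 3 summits in all, none above 48.0, and the knockout libraries show summits up to 84.1.

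Around the promoter summit, further sites differed in the same direction. The next locus upstream, 6.765 kb away in an intron, had no summit in parental replicates 1 and 2 and a percentile of 13.9 in replicate 3. In SAP30-KO1 its percentiles were 73.6, 83.3 and 97.3. Its groups did not overlap, and its values lay in the upper part of each knockout list. Farther upstream, a locus at 17.886 kb, 117 bp before the start of TENM2-204, had percentiles of 11.1 and 15.8 in SAP30-KO1 replicates 1 and 3 alone. A locus at 31.902 kb had a summit in SAP30-KO1 replicate 2 alone, at 44.6.

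On the downstream side, the locus 41.395 kb away had no parental summit and percentiles of 42.5, 4.41 and 72.4 in SAP30-KO1. The second knockout value is close to the bottom of its list, so this locus varied more between the knockout libraries than the promoter did. At 95.053 kb, SAP30-KO1 replicates 1 and 3 had 40.5 and 63.6, and at 112.307 kb replicates 2 and 3 had 29.2 and 8.44, with no parental summit at either. A stronger site lay at 133.705 kb, with 16.0 in parental replicate 2 alone and 80.3, 82.1 and 84.1 in SAP30-KO1.

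Sites that were open in both groups lay on either side of the promoter summit. The nearest upstream locus with a summit in all 6 libraries, 137.535 kb away, had percentiles of 83.3, 61.4 and 91.9 in parental and 94.6, 95.1 and 82.5 in SAP30-KO1 libraries, which overlapped. The nearest downstream one, 316.985 kb away and beyond the end of the gene, had 82.9, 78.0 and 53.5 against 82.3, 89.5 and 50.6. In the 300 kb after the end of TENM2, 16 loci had a median shift of −7.62 percentile points, and in none of them were the groups apart, that is, with the lowest percentile of 1 group above the highest of the other. The strongest TENM2 locus, in an intron 252.857 kb upstream of the promoter summit, lay between 99.0 and 99.7 in every library. On the long arm of chromosome 5 as a whole, loci with a summit in all 6 libraries had a median shift of −0.139.

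Over the whole gene the parental libraries had 12, 8 and 13 summits in TENM2, whereas 19, 23 and 22 were found after SAP30 knockout. The means were 11.0 ± 2.65 and 21.3 ± 2.08 (SD, n = 3 each), and the groups did not overlap. The difference of 10.3 summits was the largest of 17677 protein-coding gene regions with any summit, as was the difference in the share of a library's summits. Both include the promoter summit that singled the gene out, so this place is a description only. Neither was scaled to the length of the region, and TENM2 spans 1285 kb. The gene was not changed evenly. Divided at its last coding start site, that of TENM2-215 at position 167361586, a place chosen after the values were seen, the 1006 kb before it had 12, 6 and 11 parental and 9, 14 and 12 knockout summits, which overlapped. The 330 kb from there to the end had 0, 2 and 2 parental and 10, 9 and 10 knockout summits. Of the 13 loci in that last stretch, 12 had a higher mean in SAP30-KO1, with a median shift of 12.5. Of the 21 before it 11 did, with a median shift of 1.97. Most of the 13, the promoter locus among them, had no parental summit and so could only be higher in SAP30-KO1. Their count and shift are therefore a description only. Over all 56419 union loci, 28857 had a higher mean, with a median shift of 0.280. TENM2 also had 1 locus with the opposite pattern, in an intron near position 166721989, with 10.4, 41.0 and 25.7 in parental and no summit in knockout libraries. Farther upstream, the intronic locus near position 166635996 was apart and higher in SAP30-KO1, at 36.5, 0 and 43.6 against 47.7, 53.5 and 59.8.

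**Figure D2:**
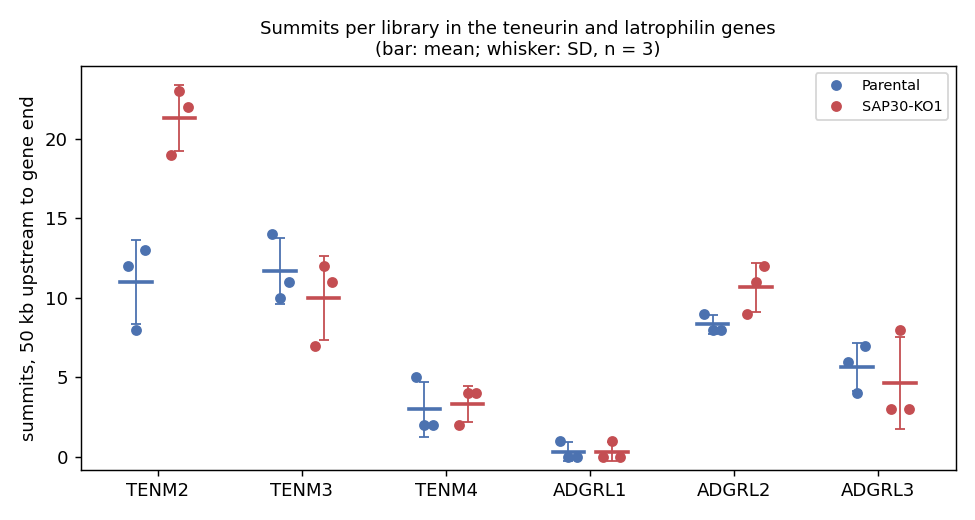
Number of summits per library (vertical axis) from 50 kb upstream to the end of each teneurin and latrophilin gene, with points for libraries, bars for the group means and whiskers for the SD (n = 3). TENM2 is the gene whose points separate most, at 8 to 13 in Parental and 19 to 23 in SAP30-KO1.

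Counted over the 89 loci, 2 had a summit in all knockout and no parental library, against 1.43% of all union loci, and both were in TENM2. The reverse was found at 2 loci, 1 in TENM2 and 1 in TENM4, against 0.876% of all. Percentiles were apart and higher in SAP30-KO1 at 9 of 89 loci (5.86% of all loci) and apart and lower at 4 (4.26% of all). TENM2 gave 5 of the 9 and 1 of the 4. The rule chose TENM2 from this contrast, so the shares over the 6 genes are not read as a result. Without TENM2, 55 loci had 4 higher and 3 lower, with a median shift of −0.914, against 0.280 over all loci. As a share of a library's summits, TENM2 and ADGRL2 were apart and higher in SAP30-KO1 and TENM3 apart and lower, where 4.73% and 4.6% of all gene regions were. The TENM3 ranges nearly met, at 0.0328% for the lowest parental and 0.0321% for the highest knockout library, and its counts of summits overlapped. The ADGRL2 ranges nearly met too, at 0.0262% for the highest parental and 0.0271% for the lowest knockout library. Its counts of summits met at 9. The 6 genes together held 0.128, 0.105 and 0.122% of the summits of parental and 0.134, 0.145 and 0.152% of those of knockout libraries. Without TENM2 the shares were 0.0954, 0.0787 and 0.0835% against 0.0706, 0.0886 and 0.0876%, which overlapped.

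**Figure D3:**
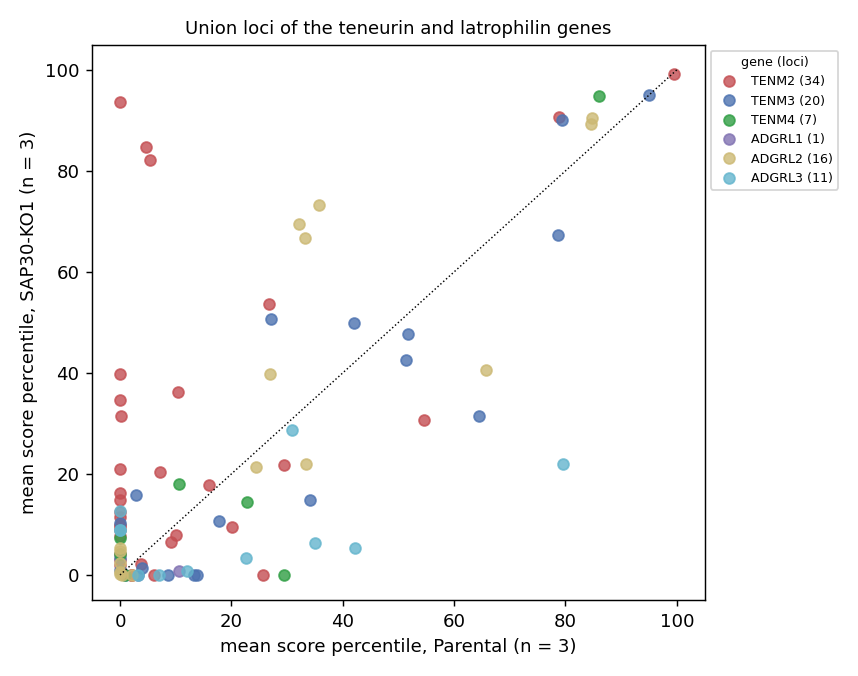
Mean score percentile in SAP30-KO1 (vertical axis) against Parental (horizontal axis, n = 3 each) for the 89 union loci of the 6 genes, coloured by gene, with the line of equal values dotted. The 3 points at the upper left are TENM2 loci with knockout means between 82.2 and 93.6, and the ADGRL3 locus at lower right has means of 79.5 and 21.9.

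TENM3, the teneurin known for wiring of visual and hippocampal circuits, had a strong promoter in both groups (chr4:183065140-183724177, plus strand). Its summit lay 159 bp after the start of TENM3-203, and not at the start of the canonical transcript. The percentiles were 96.4, 94.4 and 94.1 in parental and 93.9, 96.9 and 94.2 in SAP30-KO1 libraries, and the means differed by 0.0122 with SDs of 1.27 and 1.65. Among its 20 loci, 7 had a summit in all 6 libraries. In an intron upstream of that promoter, 1 locus was apart and higher in SAP30-KO1, at 83.9, 75.2 and 79.2 against 90.2, 86.0 and 94.2. Another in the same intron was apart and lower, at 80.9, 82.2 and 72.9 against 63.9, 67.4 and 70.7. The gene had 14, 10 and 11 parental and 7, 12 and 11 knockout summits.

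TENM4, which has been linked to oligodendrocyte differentiation and essential tremor, had few summits (chr11:78363874-79152074, minus strand). Its promoter locus, 556 bp after the start of TENM4-206, had 31.9 in parental replicate 1 and 30.3 and 23.7 in SAP30-KO1 replicates 2 and 3. No group had it in every library. An intronic locus near position 78426752 was strong throughout, at 89.4, 87.1 and 81.6 in parental and 95.7, 97.0 and 91.5 in SAP30-KO1 libraries. These ranges were apart and higher in the knockout, whereas loci of the long arm of chromosome 11 with a summit in all 6 libraries had a median shift of −14.7. Near the start of the gene, the locus at position 79148706 had 10.6, 15.1 and 62.7 in parental and no summit in knockout libraries. The arm-wide shift runs in the same direction as this difference, and its part in it was not tested.

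ADGRL1 (chr19:14258555-14316999, minus strand) had a single locus, at its promoter, with 31.8 in parental replicate 1. A weak summit of SAP30-KO1 replicate 2, at 2.09, belonged to the same locus but lay outside the 1 kb limit. The other 4 libraries had none. ADGRL1 encodes the latrophilin in which neurexin binding was described.

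ADGRL2 (chr1:81771832-82459616, plus strand) was the latrophilin with the most summits, 9, 8 and 8 in parental and 9, 11 and 12 in SAP30-KO1 libraries. Its main promoter locus, 288 bp after the start of ADGRL2-225, had 65.8, 0 and 41.4 in parental and 85.9, 53.9 and 79.8 in SAP30-KO1 libraries. The ranges overlapped. A second promoter locus, 158 bp before the start of ADGRL2-202, had 39.2 and 61.1 in parental replicates 1 and 2 and 65.8 in SAP30-KO1 replicate 3. Taking the higher of the promoter sites, the means were 56.1 ± 13.0 and 73.2 ± 17.0 (SD, n = 3), a difference close to the spread between libraries. Its strongest locus, in an intron near position 82148143, had 91.2, 74.5 and 88.6 in parental and 85.7, 90.9 and 94.9 in SAP30-KO1 libraries, which overlapped. Also in its introns, 2 loci were apart and higher in SAP30-KO1. One had 85.5, 87.0 and 81.1 against 87.5, 87.9 and 92.4, a narrow gap, and the other 40.8, 29.4 and 29.3 against 43.5, 74.3 and 82.6. Loci of the short arm of chromosome 1 with a summit in all 6 libraries had a median shift of 5.28, and its part in these differences was not tested.

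ADGRL3 (chr4:62066044-62944053, plus strand) encodes the latrophilin that binds FLRT3 and has been linked to attention deficit disorder. It had no promoter summit in any library and no locus with a summit in all 6. Of its 11 loci, 8 had a lower mean in SAP30-KO1, as did 27561 of all 56419 union loci. The intronic locus near position 62421497 differed most, with 70.9, 82.7 and 85.0 in parental and 0, 46.6 and 19.1 in SAP30-KO1 libraries. The long arm of chromosome 4, which carries ADGRL3 and TENM3, had a median shift of −1.07. ADGRL3 summits numbered 6, 4 and 7 in parental and 3, 8 and 3 in knockout libraries, which overlapped.

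**Figure D4:**
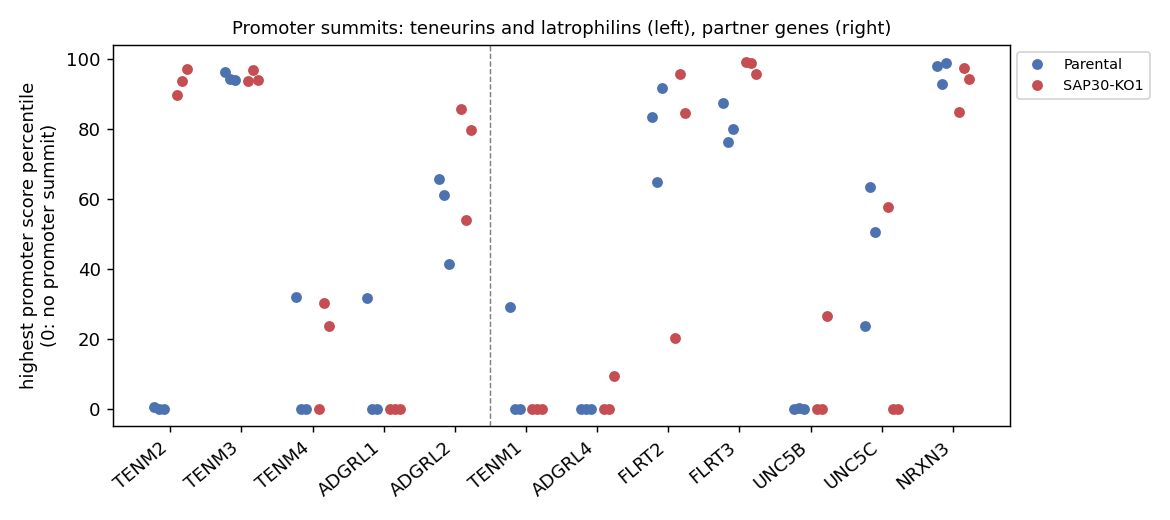
Highest score percentile among promoter summits of each gene (vertical axis, 0 where a library had none) for the 5 teneurin and latrophilin genes and the 7 partner genes with a promoter summit, with 1 point per library. TENM2 goes from 0.549 or below to 89.7 or above, TENM3 stays between 93.9 and 96.9, and FLRT3 is the partner gene shown whose groups do not overlap.

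The remaining relatives TENM1 and ADGRL4 and the described binding partners were taken as a list of partner genes, which added FLRT1 to FLRT3, UNC5A to UNC5D, NRXN2, NRXN3 and CNTN6. Their promoters were tested. Of these 12 genes, 7 had a promoter summit in any library. Promoter percentiles were apart and higher in SAP30-KO1 for 1, and apart and lower for 0. Over all promoters, 6.01% were apart and higher and 4.58% apart and lower. FLRT3, a leucine-rich repeat adhesion protein that binds latrophilins, had 87.6, 76.3 and 80.0 in parental and 99.3, 99.0 and 95.9 in SAP30-KO1 libraries, a difference of 16.8. FLRT3 gave p = 0.1 in a two-sided exact permutation test over 20 assignments of the libraries, the smallest p that 3 against 3 can give. The p adjusted by Benjamini-Hochberg over the 12568 promoters was 0.945, so FLRT3 did not pass, and no promoter could. Among partners that overlapped, NRXN3, a presynaptic neurexin, had 98.2, 93.1 and 99.1 against 84.9, 97.6 and 94.4. FLRT2 had 83.5, 64.8 and 91.8 against 20.2, 95.9 and 84.7. UNC5C, a netrin receptor, had 23.6, 63.6 and 50.7 in parental and 57.6 in SAP30-KO1 replicate 1 alone. TENM1, ADGRL4 and UNC5B had a promoter summit in 1 or 2 libraries, none above 29.3, and FLRT1, UNC5A, UNC5D, NRXN2 and CNTN6 had none. Leaving out a library brought the count apart to 2 in 2 cases, as NRXN3 was apart and lower without Parental replicate 2 and UNC5C without SAP30-KO1 replicate 1. The count cannot fall when a library is left out, and the shares over all promoters were computed with all 6 libraries only.

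The promoters whose percentiles over the 6 libraries were nearest to those of TENM2, by Euclidean distance, were those of OVGP1 (33.2), HNRNPH3 (44.4), CTBS (45.0), ARMCX6 (48.4) and ZBTB45 (49.8). OVGP1, an oviduct glycoprotein, had 0, 0 and 31.4 in parental and 93.3, 94.1 and 87.3 in SAP30-KO1 libraries. HNRNPH3, a splicing factor, had 10.1, 24.1 and 0 against 60.8, 86.9 and 76.7. None of the 5 lay on chromosome 5. Their differences could only be smaller, as that of TENM2 was the largest of all promoters and singled the gene out.

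The knockout itself cannot be read from these lists, which hold neither RNA nor protein. The SAP30 promoter had a summit in all 6 libraries, at 84.7, 64.8 and 81.3 in parental and 71.8, 49.5 and 89.5 in SAP30-KO1. Of 5 mesenchymal markers, CAV1, CD44 and VIM had a promoter summit in all 6 libraries and AXL and ZEB1 in 3 each. Of 5 luminal markers, none had one in all 6. GATA3 and KRT8 had one in 5 libraries each, more than AXL and ZEB1, FOXA1 in 2, and ESR1 and PGR in 1 each. Among 5 neuronal genes, SNAP25 and SYT1 had promoter summits in all 6 libraries, and RBFOX3, SYN1 and GAP43 in none. The glial gene SOX10 had none in either group. None of these neuronal and glial markers had groups that were apart.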

How the data were processed

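Open chromatin of 3 Parental and 3 SAP30-KO1 MDA-MB-231 libraries was measured by ATAC-seq, and the labels gave the groups and replicate numbers. Per the labels and methods, the authors trimmed single-end reads with Trim Galore (0.4.5), aligned them to hg19 with Bowtie2 (2.3.3.1), dropped Picard-marked duplicates and used MACS2 (2.1.0) for peaks with q below 0.05. One summit list was deposited per library, so replicates were taken not to be pooled. The deposited score is the −log10 of the q value, as read from the values, which start just above 1.30. Whether reads were shifted for the transposase or blacklisted regions removed is not given in the sources used here. The lists hold no counts, so depth is unknown, no counting interval was computed, and list length also depends on depth and signal.

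Scores were converted to percentiles within each library, and summits widened by 250 bp on each side (501 bp) were merged into union loci. Promoters were within 1 kb of any start site in GENCODE release 44 mapped to GRCh37. Values were called apart where the lowest of 1 group exceeded the highest of the other. Means of partner promoters were compared with a two-sided exact permutation test over 20 assignments, with Benjamini-Hochberg adjustment over all promoters, and the test was checked on simulated data. The labels do not say whether replicates were separate cultures, so their spread may be technical. The genes, the partner and marker lists and the tests were chosen with earlier results of these data known. Named were all 6 genes, the TENM2 promoter summit with its 3 neighbours on each side and the nearest sites shared by all libraries, the promoter loci and strongest loci of the other genes, the partners and the 5 most similar promoters. Some genes of the partner and marker lists are not reported here. Loci with groups apart outside this rule were named after their values were seen. Same-numbered libraries were checked for pairing over 16314 loci with a summit in all libraries. Analyses used Python 3.11.15, numpy 2.4.6, pandas 2.3.3, scipy 1.17.1 and matplotlib 3.10.9.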

Additional observations from a re-analysis of the deposited data

How the results depend on the processing

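Of the differences recomputed here, those with groups apart were the TENM2 promoter, the TENM2 summit counts and the share of the 6 genes. None of them changed sign. Percentiles at single loci and shares of single genes were not recomputed. Where groups overlapped, the TENM4 promoter difference of 7.36 was −18.6 with a promoter window of 2.5 kb and −2.75 with 500 bp, and 1.19 to 18.0 with a library left out. The ADGRL2 difference of 17.1 was 37.5 with the canonical start site only, and 9.73 to 26.7 with a library left out, the lowest without Parental replicate 3 and the highest without SAP30-KO1 replicate 2. The ADGRL3 difference of 0 was 13.5 with 2.5 kb, and the TENM3 difference of 0.0122 took either sign within its spread. With the canonical start site only, the TENM3 difference was 0, as its promoter summit lies at another start site. The TENM2 promoter difference of 93.4 was 71.9 with a promoter window of 500 bp, because the SAP30-KO1 replicate 2 summit lies 548 bp from the start site. It was 35.0 with start sites of protein-coding transcripts only and 0 with that of the canonical transcript only, which were added after seeing the data. It stayed between 91.6 and 95.3 when a library was left out. Loci with a summit in all SAP30-KO1 and no Parental library numbered 2, rose to 4 with scores of 4 or more, fell to 1 on lists of equal length (the top-ranked summits of each library), and ranged from 2 to 7 when a library was left out, with 4 without Parental replicate 3, 7 without SAP30-KO1 replicate 1 and 5 without SAP30-KO1 replicate 2. The reverse count of 2 was 0 with scores of 4 or more, on lists of equal length and for windows reaching 100 bp to either side, and ranged from 2 to 4, with 4 without SAP30-KO1 replicate 3. With a library left out, the rule asks for fewer libraries and is easier to meet. The share of all union loci was not computed for these settings, so the altered counts have no share to be read against. The difference in the share of summits in the 6 genes, 0.0253 percentage points, was 0.0145 with scores of 4 or more, and 0.0186 to 0.0302 with a library left out. The TENM2 region difference of 10.3 summits ran from 8.83 to 11.5 with a library left out. From the last coding start site on, the difference of 8.33 summits was 6.0 with scores of 4 or more and 7.0 on lists of equal length. These counts of summits were also recomputed after seeing the data. Partner promoters apart between the groups numbered 1 in every planned setting with all libraries, and 1 to 2 with a library left out, with 2 without Parental replicate 2 and without SAP30-KO1 replicate 1. Leaving out a library cannot lower this count. The cause of these changes was not tested beyond what is stated.

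Deviations of same-numbered libraries correlated at −0.0179, −0.0127 and −0.00320, so the numbers did not pair the libraries. A replicate block cannot change a difference of means between groups of equal size, so the TENM2 differences of 93.4 and 10.3 were not tested by it. The partner promoters whose differences had the same sign in every same-numbered pair numbered 1. Any promoter that is apart meets this rule, so that count could not fall below 1. With 3 libraries a group and no read counts, weak summits near the q threshold are the least certain values.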

Other observations

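Promoter and other sites together, the 12 partner genes held 68 union loci, with 5 (7.35%) apart and higher in SAP30-KO1 and 3 (4.41%) apart and lower, near the 5.86% and 4.26% of all union loci. NRXN3, a neurexin gene on chromosome 14, had an intronic locus near position 79511979 with percentiles of 83.7, 79.2 and 87.4 in Parental and 98.4, 97.6 and 97.8 in SAP30-KO1 libraries. Another NRXN3 locus, near position 80063039, had 26.7, 55.0 and 42.7 in Parental and no summit in SAP30-KO1 libraries. ADGRL4, a latrophilin relative expressed in endothelium, had an intronic locus near position 79545804 at 54.7, 37.3 and 76.5 against 89.3, 91.0 and 80.6.

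UNC5C, a netrin receptor gene on chromosome 4, had 2 loci that were apart and lower in SAP30-KO1. Its locus upstream of the gene, near position 96494047, had 63.5, 49.7 and 72.7 in Parental and no summit in SAP30-KO1 libraries. An intronic UNC5C locus near position 96188547 had 34.3, 63.8 and 49.2 against 0, 19.3 and 0. These loci were named after their values were seen, and no test was made at single loci.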
